A study of Mus musculus with 4 samples.

Results

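The comparison set liver RNA of HSL-null mice kept on a high-fat diet (FD) against liver RNA of HSL-null mice kept on a normal diet (ND). It used 2 of the study's 4 arrays, those whose labels give the knockout genotype, and every non-control probe set annotated to 1 gene, which was 10833 of 12422. HSL-null mice carry a general knockout of the gene for hormone-sensitive lipase (HSL), Lipe, so the enzyme was missing from adipose tissue and all other organs and not from liver alone. Both groups were female mice, 8 months old, sampled in the fed state. The ND group had taken 11% and the FD group 58% of its energy from fat for 6 months. RNA of 6 livers was pooled for ND and RNA of 4 livers for FD, and each pool went onto 1 Affymetrix MG_U74Av2 array. The remaining arrays carried pools of 6 wild-type livers each, on ND and on FD, of the same sex and age and on the same diets, and serve as the second diet comparison. The study asked what the loss of HSL does to the metabolism of the liver.

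Liver makes fatty acids from carbohydrate and cholesterol from acetyl-CoA, and both pathways are switched on by sterol regulatory element-binding proteins (SREBPs). When cholesterol is plentiful in the membranes of the endoplasmic reticulum, SREBP-2 is held there and the genes of cholesterol synthesis are transcribed less. Insulin and carbohydrate raise the genes of fatty acid synthesis in the fed state, and polyunsaturated fat in the diet lowers them. HSL is best known as a lipase of fat cells, where it takes part in releasing fatty acids from stored fat, and it also hydrolyses cholesteryl esters.

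Liver of HSL-null mice on FD had lower signals for cholesterol synthesis than liver of HSL-null mice on ND, with 15 of 16 measured genes lower and a median log2 ratio of -0.96, close to 2-fold. Genes of fatty acid synthesis were lower as well, with 13 of 15 below 0 and a median of -0.50. Immediate early genes were higher, with 16 of 21 above 0 and a median of 0.56. The bile acid genes Cyp7a1 and Nr0b2 were more than 2-fold higher, and genes of fatty acid oxidation differed little. All ratios here are FD over ND on a log2 scale, so that 1 stands for 2-fold higher and -1 for 2-fold lower. There was 1 array for each diet and therefore no test, so the words higher and lower refer only to the pools measured.

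After a filter on low signal, 4829 genes were kept, each read by its brightest probe set. Of these, 40 genes (0.828%) were 2-fold or more higher and 30 (0.621%) 2-fold or more lower on FD, together 1.45% of the genes kept. The median log2 ratio was 0.041 and the SD over genes 0.32, and 56.9% of genes lay above 0 and 42.8% below. In wild type the same diet gave 38 genes higher (0.787%) and 114 lower (2.36%), with a median of -0.047 and 44.0% of genes above 0 and 55.7% below. The split into higher and lower genes moved with the scaling of the arrays. Of the genes past 2-fold in HSL-null liver, 57.1% were higher with the deposited scaling, against 41.8% with quantile normalization (28 higher, 39 lower), 39.7% with cyclic loess (27 and 41) and 31.4% with median scaling (22 and 48). With median scaling the median over all genes moved by -0.156.

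The higher genes were mostly dim. The brighter of their 2 signals had a median of 67.4 and was under 60 for 19 of 40 genes, whereas for the lower genes the median was 219 and 8 of 30 were under 60. Among the 1208 genes with the lowest mean signals the median ratio was 0.13, with 25 genes 2-fold higher and 8 lower, and among the 1206 with the highest it was -0.045, with 5 higher and 11 lower. In wild type the medians of these genes were -0.139 and 0.018. Genes just inside the 2-fold line were Dusp1 (1.01), Ptpn22 (1.01) and Uqcc1 (1.002) on the higher side and Pklr (-1.02), Lpin1 (-1.04) and 0610005C13Rik (-1.06) on the lower side. Just outside it were Jchain (0.997), Tcf7l2 (0.99), Adgrd1 (0.99), Pdzk1ip1 (-0.996), Cyp51 (-0.99) and Cxcl9 (-0.99). Uqcc1, 0610005C13Rik, Tcf7l2, Adgrd1 and Pdzk1ip1 are named only for their place at the line.

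**Figure D1:**
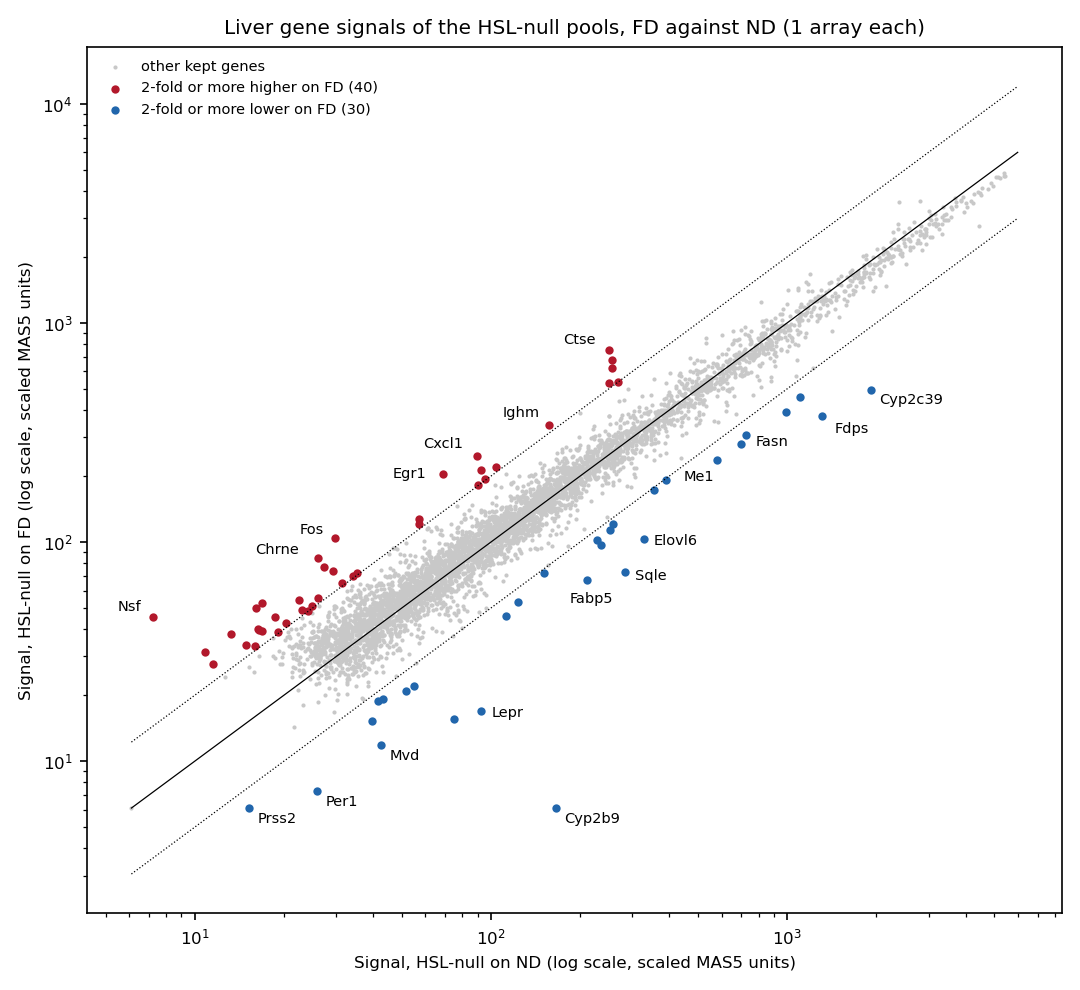
Each point is 1 of the 4829 genes kept, with its signal in the HSL-null ND pool on the horizontal axis and in the HSL-null FD pool on the vertical axis, both on log scales in scaled MAS5 units, and signals under the floor drawn at the floor of 6.1. The solid line marks equal signals and the dotted lines 2-fold differences, and the 40 higher genes (red) lie mostly at low signal whereas Fdps, Cyp2c39, Fasn and Me1 are among the 30 lower genes (blue) at high signal.

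Array quality measures of the HSL-null pair were alike in part. The median signal was 25.4 on ND and 28.3 on FD, 26.0% and 25.1% of probe sets lay at or under the floor, and the ratio of 3 prime to 5 prime signal was 1.41 and 1.32 for beta-actin and 0.845 and 0.838 for Gapdh. The 18S ribosomal RNA probe sets had a mean of 307 on ND and 99.1 on FD, the hybridisation spikes 409 and 328 and the poly-A spikes 1780 and 1510. Their part in the results was not tested. The run settings give both arrays the same chip lot, day and solution lot. The wild-type arrays shared another solution lot, so that genotype and solution lot cannot be told apart where the diet ratios of the genotypes are set side by side. Lipe itself was read at 11.9 on ND and 15.9 on FD in HSL-null liver, against 28.0 and 34.0 in wild type. These signals are dim, and their mean of 22.5 was under the filter. It is not known here whether the probes of Lipe target sequence that the knockout removed, and their signal is only a partial check of the genotype. For 687 genes a further probe set was kept, and the error of a ratio from disagreement between the probe sets of a gene had an SD of 0.258. It leaves out errors shared on an array and variation between animals, neither of which was measured. As the RNA came from whole liver, fewer cells of a type and less RNA per cell cannot be told apart for any gene below.

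Cholesterol synthesis was the gene list with the lowest median. The list held 16 measured genes of 20 listed, all 16 passed the filter, and the genes 2-fold or more lower numbered 7 (43.8% of the list, beside 0.621% of all genes), while none was 2-fold higher. Their summed signal was 4595 on ND and 2455 on FD. Wild-type sums were 3733 and 5305, and 16 of 16 genes were above 0 with a median of 0.57. Under the alternatives run, the HSL-null median lay between -1.12 and -0.80. All 16 members are given because the list is described whole, and those beyond the 4 with the largest ratios were chosen after their values were seen.

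Early steps of the pathway, which build isoprenoid units from mevalonate, differed from gene to gene. Mvd, which encodes mevalonate diphosphate decarboxylase, gave signals of 42.5 (ND) and 11.8 (FD) in HSL-null liver, a ratio of -1.85, and of 25.2 and 58.1 in wild type, a ratio of 1.21. It was thus lowest of the 4 arrays in HSL-null liver on FD and highest in wild type on FD. These are dim signals, and with the floor raised to the median of all values its HSL-null ratio was -0.67. Fdps, the farnesyl diphosphate synthase gene, had 1312 on ND and 375 on FD (-1.81), with -1.88 at a second probe set, against 1133 and 1211 in wild type (0.095). Its signal was low on the HSL-null FD array and within a narrow range on the other arrays. Idi1, for isopentenyl diphosphate isomerase, had 228 and 102 (-1.16), against 249 and 367 in wild type (0.56). By contrast Hmgcs1, the synthase that feeds the pathway, had 463 and 422 (-0.14), and Mvk, for mevalonate kinase, had 57.5 and 59.4 (0.047), although a Mvk probe set just under the filter had 26.1 and 13.6 (-0.94).

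The steps from farnesyl diphosphate to cholesterol were lower in HSL-null liver on FD at each of the genes measured. Sqle, which encodes the flavoprotein that oxidises squalene, had 283 on ND and 72.9 on FD, 3.88-fold lower (-1.96), against 186 and 258 in wild type (0.47). Dhcr7, the reductase of the last step, had 113 and 45.7 (-1.30), against 77.3 and 105 in wild type (0.44). Both were lowest in HSL-null liver on FD, and both were higher on FD than on ND in wild type. The sterol reductase gene Tm7sf2 had 253 and 113 (-1.16), but -0.60 at its second probe set. Nsdhl, which acts in removal of sterol methyl groups, had 257 and 121 (-1.09), and its other probe sets gave -1.12 and -0.64. Wild-type ratios of these last genes were 0.57 for Tm7sf2 and 0.79 for Nsdhl. Under 2-fold were the demethylase gene Cyp51 (55.9 and 28.1, -0.99) and the lanosterol synthase gene Lss (-0.93). Sc5d (-0.53), Msmo1 (-0.47), Ebp (-0.42), Hsd17b7 (-0.39) and the squalene synthase gene Fdft1 (-0.35) followed. Msmo1 had the highest wild-type ratio of the list, 1.51, with 118 on ND and 336 on FD, against 185 and 133 in HSL-null liver.

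**Figure D2:**
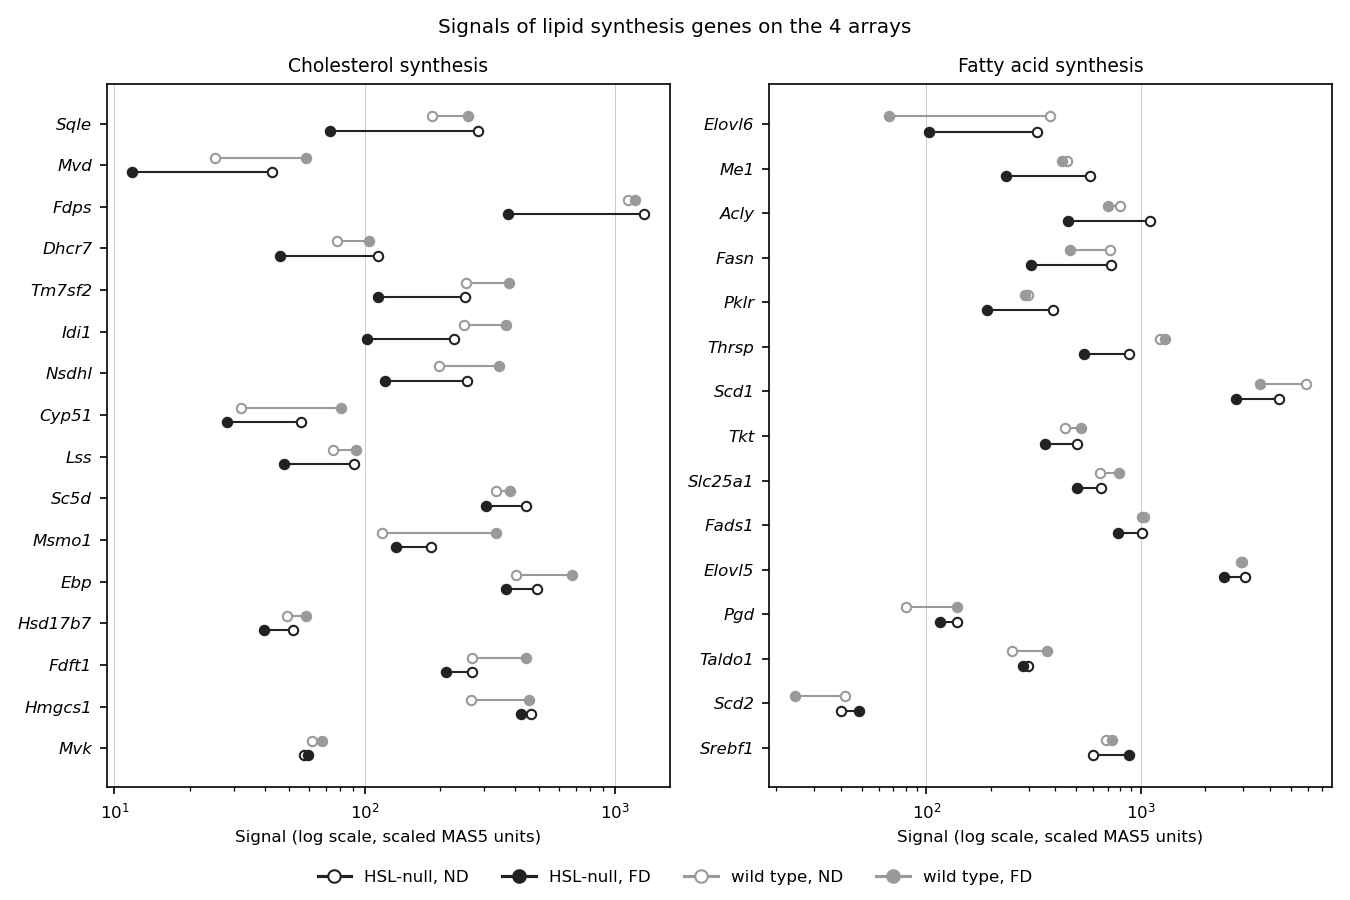
Signals of the 16 cholesterol synthesis genes (left) and 15 fatty acid synthesis genes (right) on the 4 arrays, on a log scale in scaled MAS5 units, with an open circle for ND, a filled circle for FD, black for HSL-null and grey for wild type, and 1 array per circle. In the left panel the black filled circle lies left of the open one for all genes but Mvk, while the grey filled circle lies right of the open one for all 16 genes.

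Sequences upstream of 4 genes of the list are shown because their promoters carry the box, CCAAT, that the list's promoters shared, and because 1 of them holds the core of a sterol response element. The promoter table, from RefSeq with the build GRCm38.p6, covers 250 bases before to 50 bases after each gene's start and held 13 of the 16 genes. A gene with several starts has several windows and was counted when any of them held a match, and Dhcr7 had 3 windows, of which 1 held matches and is the one shown. The core searched was TCACNCCAC, and each motif was searched on both strands. Hmgcs1 alone of the 13 genes (7.69%) had the core, beside 1.24% of all 32851 windows. CCAAT, which occurs on either strand as CCAAT or ATTGG and does not overlap the core, was in 13 of 13 genes, beside 37.4% of all windows and 41.1% of the 27025 genes with a window. Of 12 fatty acid synthesis genes with a window, 10 had it (83.3%). So did 10 of 17 immediate early genes (58.8%) and 2 of 5 genes of cholesterol uptake and regulation (40.0%). The sequences give the 250 bases before the start in the direction of the gene, with matches to either motif in capitals: Mvd at chr8:122443423-122443672 (minus strand), Idi1 at chr13:8885356-8885605 (plus), Dhcr7 at chr7:143829964-143830213 (plus) and Hmgcs1 at chr13:119690101-119690350 (plus).
Mvd: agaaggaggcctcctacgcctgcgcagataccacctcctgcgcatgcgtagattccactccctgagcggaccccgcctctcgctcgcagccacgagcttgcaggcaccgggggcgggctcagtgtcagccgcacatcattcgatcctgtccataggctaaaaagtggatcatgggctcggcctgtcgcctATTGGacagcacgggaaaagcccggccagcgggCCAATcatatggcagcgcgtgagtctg
Idi1: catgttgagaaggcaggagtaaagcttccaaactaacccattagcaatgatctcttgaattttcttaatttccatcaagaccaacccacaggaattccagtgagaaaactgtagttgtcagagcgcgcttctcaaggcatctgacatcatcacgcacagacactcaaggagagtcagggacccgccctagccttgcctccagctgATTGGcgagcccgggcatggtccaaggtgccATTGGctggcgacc
Dhcr7: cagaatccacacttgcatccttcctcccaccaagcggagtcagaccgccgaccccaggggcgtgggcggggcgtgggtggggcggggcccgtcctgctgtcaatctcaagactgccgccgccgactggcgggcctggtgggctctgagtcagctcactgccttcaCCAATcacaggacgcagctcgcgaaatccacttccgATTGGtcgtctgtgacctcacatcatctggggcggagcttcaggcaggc
Hmgcs1: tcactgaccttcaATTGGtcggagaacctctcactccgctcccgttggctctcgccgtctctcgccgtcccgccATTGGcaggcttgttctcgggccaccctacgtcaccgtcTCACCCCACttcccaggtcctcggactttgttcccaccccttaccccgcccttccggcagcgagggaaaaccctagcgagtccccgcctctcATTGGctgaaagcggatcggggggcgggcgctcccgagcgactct
In Mvd the boxes lay 60 to 56 and 27 to 23 bases before the start, in Idi1 45 to 41 and 14 to 10 bases, and in Dhcr7 85 to 81 and 49 to 45 bases before it. The core in Hmgcs1 lay 137 to 129 bases before the start. Of these 4 genes, Hmgcs1 had the diet ratio nearest to 0. A match is a description of the letters and not of binding, and the window may miss sites elsewhere.

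Genes of cholesterol uptake, export and regulation did not follow the synthesis genes. Of 9 measured members 8 were kept, with 3 above and 5 below 0, none past 2-fold and a median of -0.046. Abca1, the exporter that loads cholesterol onto lipoproteins, had 324 on ND and 463 on FD (0.52), against 366 and 241 in wild type (-0.60). Npc2 (-0.54) and Npc1 (-0.27), which move cholesterol out of lysosomes, and the lipoprotein receptor gene Scarb1 (-0.16) were lower. Insig1, an inhibitor of SREBP processing, was under the filter, with signals under the floor on all 4 arrays.

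Bile acids are made from cholesterol, and 2 of 14 measured genes of their synthesis and transport (14.3%, beside 0.828% of all genes) were 2-fold or more higher on FD. Cyp7a1, the rate-limiting enzyme of bile acid synthesis, had 92.6 on ND and 214 on FD in HSL-null liver (1.21), and 111 and 175 in wild type (0.66). It was higher on FD in both genotypes. Nr0b2, a nuclear receptor that represses Cyp7a1, had 104 and 220 (1.08), against 99.5 and 97.1 in wild type (-0.035), so that the HSL-null FD array stood above the others. The bile acid receptor gene Nr1h4 had 112 and 204 (0.87), and the sterol hydroxylase gene Cyp8b1 was lower, with 765 and 469 (-0.71). In the list as a whole 8 genes were above 0 and 6 below, with a median of 0.15, or -0.008 with median scaling.

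Fatty acid synthesis had 5 genes of 15 (33.3%, beside 0.621% of all genes) 2-fold or more lower and none 2-fold higher, and its median lay between -0.66 and -0.43 over the alternatives. Elovl6, the elongase of saturated fatty acids, had 327 on ND and 103 on FD in HSL-null liver (-1.67), and 378 and 67.2 in wild type (-2.49). It was low on both FD arrays, and its second probe set gave -1.87. Me1, the cytosolic malic enzyme gene that supplies reducing power, had 580 and 236 (-1.29), against 454 and 431 in wild type (-0.076). Acly, which makes cytosolic acetyl-CoA, had 1105 and 459 (-1.27), against 799 and 699.9 in wild type (-0.19). For both genes the ND signal in HSL-null liver was the highest of the 4 arrays and the FD signal the lowest. Fasn, which encodes fatty acid synthase, had 723 and 307 (-1.24), against 719 and 468 in wild type (-0.62). Pklr, the liver pyruvate kinase gene, had 391 and 192 (-1.02), but -0.49 at its second probe set, against 299 and 289 in wild type (-0.049). Thrsp (-0.70) and the desaturase gene Scd1 (-0.67) were lower by less than 2-fold. Srebf1, which encodes a transcriptional activator of these genes, was on the other side of 0, with 602 on ND and 878 on FD (0.55). Thrsp, Scd1 and Srebf1 were chosen after their values were seen.

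The fat droplet and triglyceride list had 1 of 11 genes kept 2-fold or more lower (9.09%, beside 0.621% of all genes) and none 2-fold higher. Lpin1, a phosphatidate phosphatase, had 356 on ND and 173 on FD (-1.04), and 396 and 262 in wild type (-0.59). Gpam, the acyltransferase of the first step of glycerolipid synthesis, had 673 and 385 (-0.80), against 429 and 485 in wild type (0.18). Pparg, a lipogenic nuclear receptor, was dim and higher, with 24.5 and 43.0 (0.81). The list's median was -0.062, with 3 genes above and 8 below 0. Among 10 genes of fatty acid uptake and binding, Fabp5, a fatty acid binding protein, had 210 and 66.9 (-1.65) in HSL-null liver and 196 and 60.2 (-1.71) in wild type. Its signals were much alike in the genotypes and low on both FD arrays. Cd36, the fatty acid translocase gene, was dim and had 24.9 and 47.5 (0.93), against 28.1 and 36.7 in wild type (0.38).

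Oxidation genes were not past 2-fold at any member. The 17 mitochondrial genes kept had a median of 0.10, with 13 above 0, led by the carnitine carrier gene Slc25a20 (0.41) and the electron transfer gene Etfdh (0.39), and Cpt1a, which controls entry of fatty acids into mitochondria, had -0.18. Peroxisomal and omega oxidation genes, many of them targets of the receptor PPAR-alpha, had a median of 0.12 over 20 genes, with 15 above 0. Cyp4a14, an omega-hydroxylase gene, had 813 on ND and 1239 on FD (0.61), followed by Vnn1 (0.41) and Ehhadh (0.34). In wild type the medians were 0.099 and 0.33. Median scaling moved nearly all ratios down alike and turned both HSL-null medians to just below 0, at -0.054 and -0.04. They stayed 0.061 and 0.075 above the median of all genes, a distance that such a shift leaves as it was by construction. Genes of neutral lipid hydrolases, enzymes that share substrates with HSL, had a median of 0.11 over 11 genes, between Abhd5, the activator of adipose triglyceride lipase (-0.37), and Ces1g (0.29). Apolipoprotein genes leaned lower, with 13 of 14 below 0 and a median of -0.20, or -0.051 with cyclic loess. Apom (-0.42), Apoa5 (-0.41) and Apoc2 (-0.27) led, and Apob was at 0.055. Of all 4829 genes 42.8% lay below 0, and none of these 14 reached 2-fold.

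Carbohydrate and insulin genes differed at few members. Lepr, the leptin receptor gene, had 92.3 on ND and 17 on FD in HSL-null liver, 5.43-fold lower (-2.44, and -1.79 with the floor at the median), and 156 and 7.5 in wild type (-4.38). It was low on both FD arrays and is 1 of 19 insulin and IGF genes kept, whose median was -0.039. Igfbp1, an insulin-repressed binding protein of liver, had 1648 and 1734 (0.073). Pik3r1, a regulatory subunit of phosphoinositide kinase, had 0.68 and Igfbp2 -0.49. Gluconeogenesis and glycogen genes had a median of -0.084 over 11 genes, with Slc37a4 at -0.64, Ppp1r3c at 0.40 and Pck1, which encodes the first committed enzyme of gluconeogenesis, at -0.27. Glycolysis and pyruvate genes had -0.14 over 13 genes, and after Pklr the mitochondrial genes Pdk1 (-0.74) and Dlat (-0.67) were lowest.

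Cytochrome P450 genes of drug and steroid metabolism held the gene with the largest bound. Cyp2b9, a P450 of female-type liver, had 166 on ND and 2.1 on FD in HSL-null liver, which is under the floor of 6.1 and makes it at least 27.2-fold lower. In wild type it had 1046 and 1632 (0.64). Its signal was therefore low on both HSL-null arrays and at background on the FD array. Its neighbour in the family, Cyp2b13, was under the floor on both HSL-null arrays (3.2 and 1.3) and gives no ratio. Cyp2c39 had 1912 on ND and 494 on FD, 3.87-fold lower (-1.95), against 1971 and 1985 in wild type (0.01). It was low on the HSL-null FD array alone, with the other arrays within a narrow range. The 26 P450 and related genes kept had a median of 0.005, with 13 above and 12 below 0, and 2 of them (7.69%, beside 0.621% of all genes) were 2-fold lower. Ahr, the aryl hydrocarbon receptor gene, had 0.82, and Cyp2d9 had 0.71.

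Genes with female-biased expression in liver had the fourth lowest list median, -0.43 over 9 genes, with 3 above and 5 below 0, against 0.48 in wild type, and -0.21 when probe sets of a gene were averaged. Besides Cyp2b9 the lowest was Cyp17a1, a steroid hydroxylase, with 987 on ND and 393 on FD (-1.33), against 950 and 912 in wild type (-0.06). Prom1 (-0.98) and Cyp3a16 (-0.66) came next. Male-biased genes had a median of 0.10 over 9 genes, which was -0.051 with median scaling and -0.137 with a stricter filter. Among 15 genes of retinoid metabolism 1 was 2-fold lower (6.67%, beside 0.621% of all genes). It was the retinol dehydrogenase gene Rdh11, with 698 and 279.5 (-1.32) and -1.15 at a second probe set, against 427 and 437 in wild type (0.035). Its ND signal was the highest and its FD signal the lowest of the 4 arrays. In the heme list of 12 genes, Slc48a1, a heme transporter gene, had 74.8 and 15.5, 4.83-fold lower (-2.27, and -1.49 with the floor at the median), against 66.4 and 89.4 in wild type (0.43). Conjugation enzymes had a median of -0.085 over 23 genes, led by Gstm6 (-0.74) and Nnmt (-0.59), and targets of the oxidative stress factor NRF2 had 0.051 over 18 genes, led by Srxn1 (0.60) and Gclc (0.46). For Srxn1 a further kept probe set gave 0.189.

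Immediate early genes, which respond quickly to growth factors and stress, had a median of 0.56. It was the highest of the 46 lists, together with that of the 3 genes kept in the neutrophil list (0.56). Of 28 measured genes 21 were kept, 16 were above 0, and 5 (23.8%, beside 0.828% of all genes) were 2-fold or more higher. Fos, a subunit of the transcription factor AP-1, had 29.7 on ND and 104 on FD in HSL-null liver (1.81), and 38.6 and 51.6 in wild type (0.42). Egr1, a zinc finger factor, had 68.7 and 205 (1.58), against 94.5 and 45.8 in wild type (-1.04). Jun, the partner of Fos, had 27.3 and 76.8 (1.49), against 30.9 and 30.3 in wild type (-0.028). All had their highest signal on the HSL-null FD array. Gadd45a, a growth arrest gene, had 57.2 and 128 (1.16), and Dusp1, a phosphatase that turns off stress kinases, had 268 and 539 (1.01). For these genes as well the HSL-null FD signal was the highest of the arrays and the HSL-null ND signal the lowest. Gadd45b (0.97) and Ier2 (0.95) were just under 2-fold, and the lowest member was Klf10 (-0.30). The median lay between 0.35 and 0.59 over the alternatives and was -0.24 in wild type. The summed signal was 2908 on ND and 4150 on FD in HSL-null liver. Dusp1, Ier2 and Klf10 were chosen after their values were seen.

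**Figure D3:**
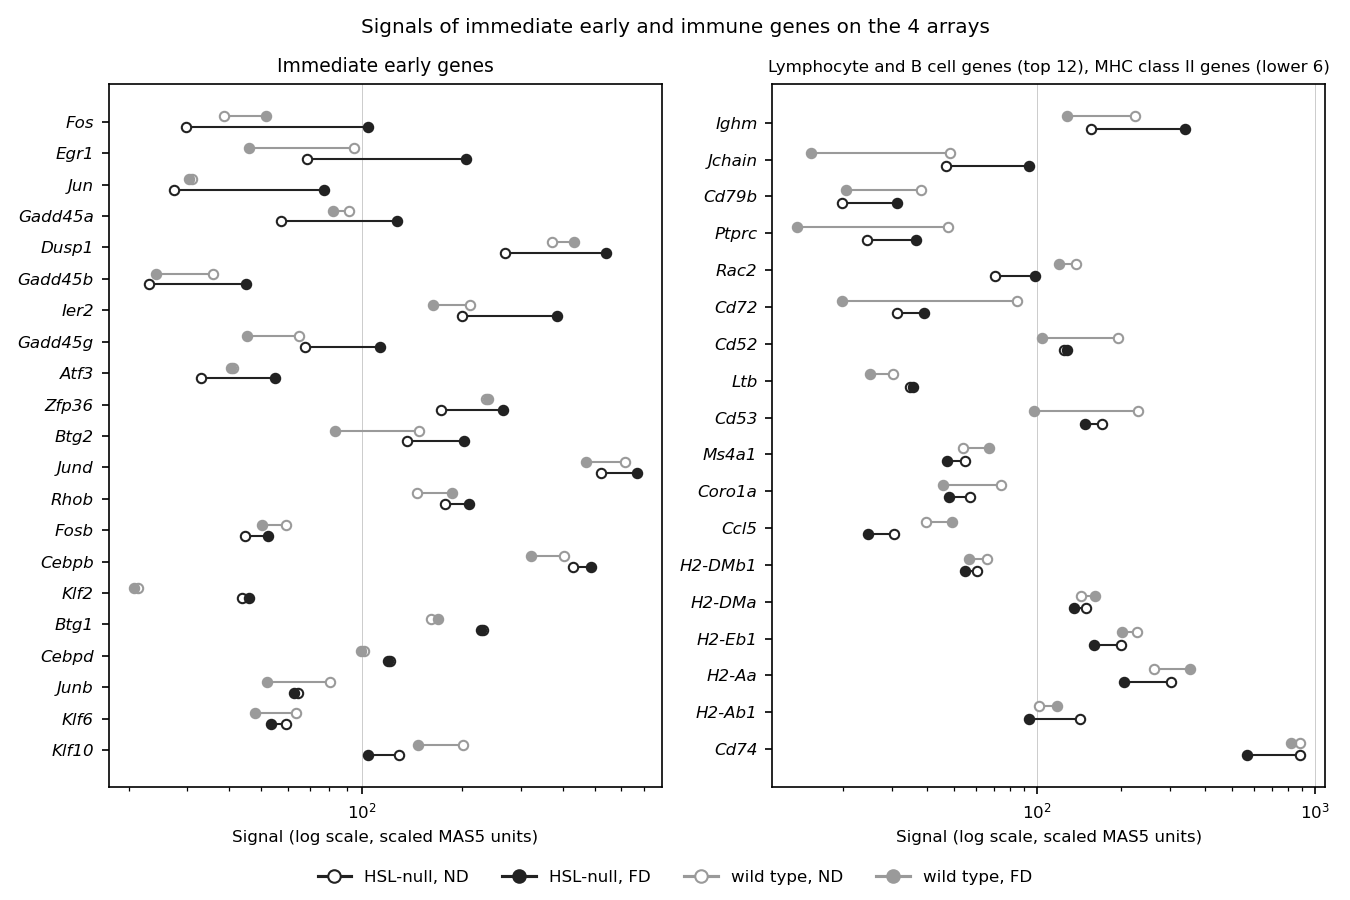
Signals of the 21 immediate early genes (left) and of 12 lymphocyte and B cell genes and 6 MHC class II genes (right) on the 4 arrays, on a log scale in scaled MAS5 units, with an open circle for ND, a filled circle for FD, black for HSL-null and grey for wild type, and 1 array per circle. For 16 of 21 immediate early genes the black filled circle lies right of the open one, and for all 6 MHC class II genes it lies left.

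A few antibody genes had higher signals on FD than on ND in HSL-null liver and lower ones in wild type at their brightest probe sets. Ighm, the heavy chain of IgM, had 157 on ND and 341 on FD in HSL-null liver (1.12), and 226 and 128 in wild type (-0.82). The identifier of that probe set carries a suffix that marks sets which may read related chains, and the only kept Ighm probe set with no such suffix had 42.8 and 43.8 (0.033). Jchain, which joins IgM and IgA subunits, had 46.8 and 93.4 (0.997), against 48.4 and 15.4 in wild type (-1.65). The light chain gene Igkv6-23 had 250.6 and 529 (1.08), against 325 and 112 in wild type (-1.54), and it too was read by a probe set with such a suffix alone. Each was highest on the HSL-null FD array and lowest on the wild-type FD array. Among all lymphocyte and B cell markers 31 were measured and 12 kept, with 8 above 0, beside 56.9% of all genes. Their median was 0.18, beside 0.041 over all genes. With median scaling it was 0.027, where all genes had -0.115. The summed signals of these markers were 823 and 1073 in HSL-null liver and 1207 and 706 in wild type. Defining T cell markers (Cd3d, Cd3e, Cd3g and Cd8a) were under the filter, with signals of at most 15.6. Cd79b, a B cell receptor gene, had 0.66 and Ptprc, which marks white blood cells, 0.58. Another kept probe set of Ptprc gave 0.155.

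Other immune genes went different ways. Class II antigen presentation genes were lower at 6 of 6 genes kept of 12 measured, with a median of -0.45, none past 2-fold and a median of -0.071 with no filter on low signal. Cd74, the invariant chain, had 882 on ND and 567 on FD (-0.64), against 884 and 815 in wild type (-0.12), and H2-Aa had 304 and 205 (-0.57), against 263 and 354 in wild type (0.43). Interferon response genes were below 0 at 21 of 23, with a median of -0.14. The chemokine gene Cxcl9 had 155 and 78.4 (-0.99), against 101 and 154 in wild type (0.61). Macrophage and Kupffer cell markers had a median of -0.044 over 26 genes kept of 31, and summed signals of 6560 and 6190. Among these markers Il1b, the interleukin-1-beta gene, had 26.1 and 55.3 (1.08), against 53.2 and 20.0 in wild type (-1.41). Cxcl1, a chemokine that attracts neutrophils, had 89.6 and 246.5 (1.46) and 1.54 at a second probe set, against 313 and 62.7 in wild type (-2.32). Only 3 of 15 genes of the neutrophil list were kept, Cxcl1, Lcn2 (0.56) and Csf3r (0.22). Lcn2 is in the acute phase list too. The median of the 3 was 0.56, and 1.01 with a stricter filter, where immediate early genes had 0.35. The defining markers S100a8 (17.9 and 37.5) and S100a9 (10.2 and 30.3) were under the filter and dim.

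Matrix and stellate cell genes had 21 of 27 members kept above 0 and a median of 0.24, with -0.29 in wild type and 0.049 in HSL-null liver with a stricter filter. Col1a1, a chain of the main fibrous collagen, had 26.3 on ND and 50.8 on FD (0.95), against 36.8 and 35.8 in wild type (-0.04), and Col3a1 had 37.3 and 60.8 (0.70). These signals are dim, and no member was past 2-fold. Hepatocyte genes checked the tissue of the labels, and all 26 measured were kept, with Alb at 5382 and 4680 (-0.20). Their median was -0.17, with 19 below 0, and 0.00 with quantile normalization, and their summed signals were 59650 on ND and 54090 on FD. Acute phase genes, made by hepatocytes in inflammation, had -0.067 over 29 genes, from Lbp (-0.57) to Saa2 (2388 and 3552, 0.57). That Saa2 probe set may read related genes, and the kept one with no suffix had 754 and 1535 (1.03). Endothelial genes had -0.041 over 12 genes, bile duct genes -0.01 over 7, red blood cell genes 0.12 over 8 and adipocyte genes 0.093 over 6. The adipocyte hormone gene Adipoq was under the floor on both HSL-null arrays (4.8 and 4.9). Exocrine pancreas genes had 0.11 over 9, with summed signals of 601 and 629 in HSL-null liver and 1265 and 613 in wild type, and Prss2, a trypsinogen gene, had 15.2 and 1.9, at least 2.49-fold lower. The part of these other cell types in the results was not tested.

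**Figure D4:**
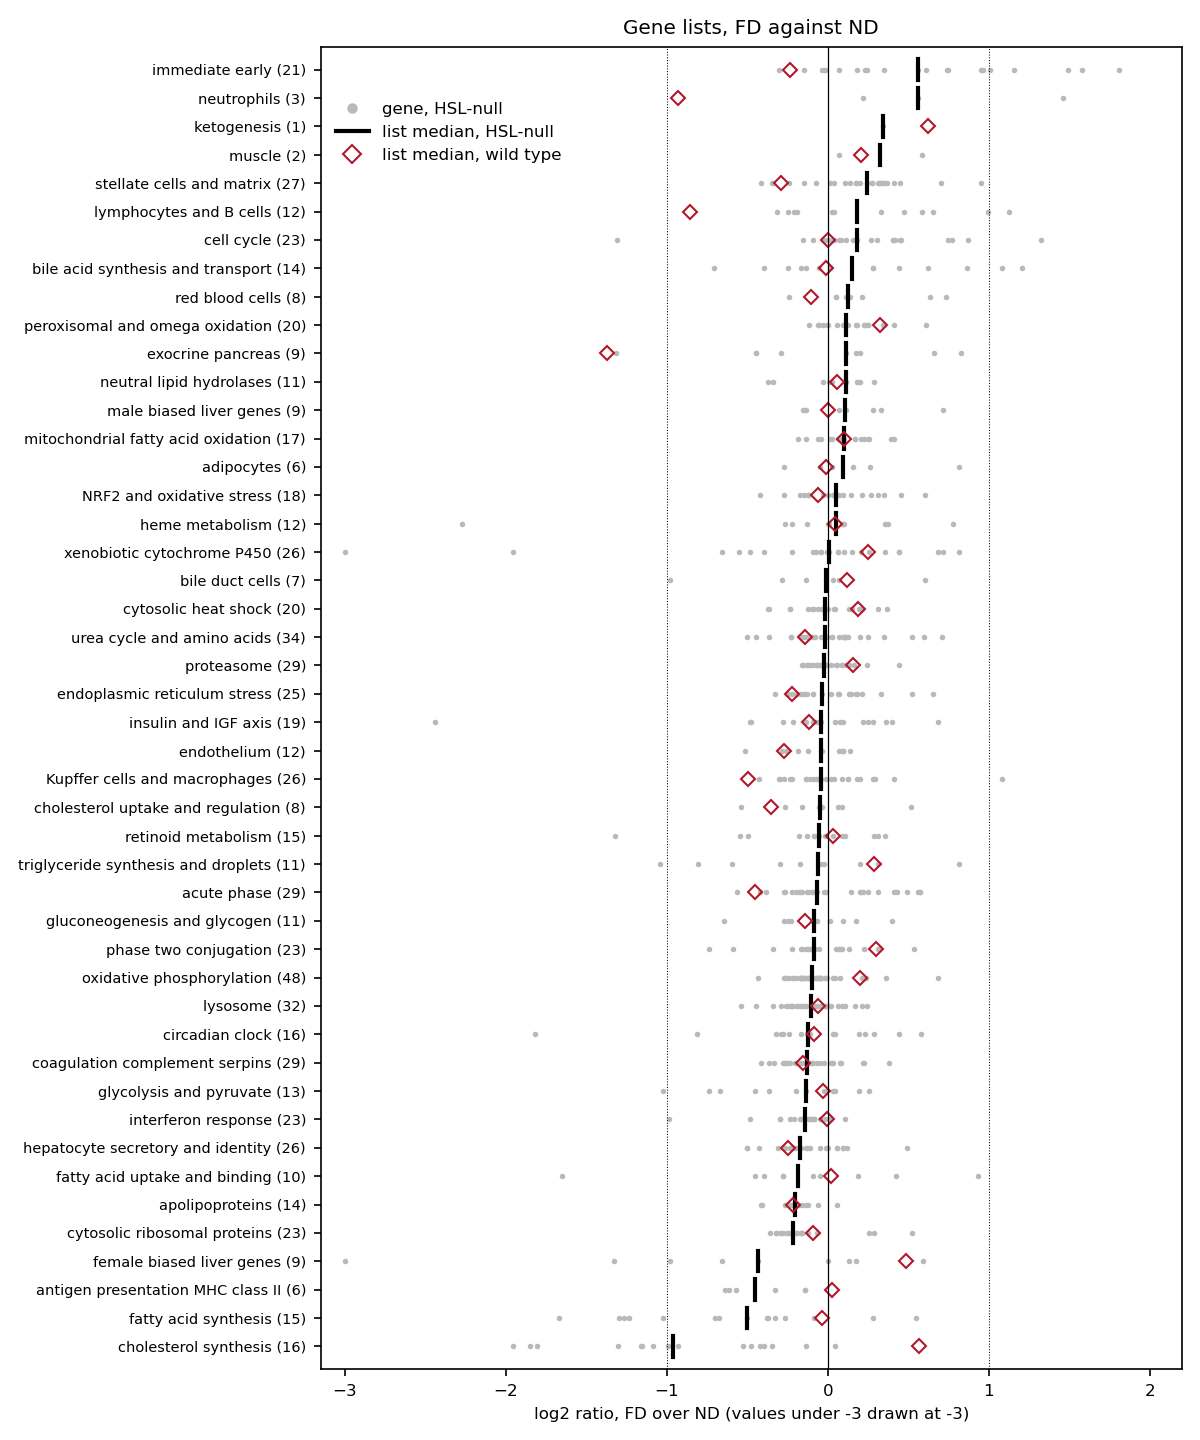
Log2 ratios of FD over ND for the 46 gene lists, ordered by their median in HSL-null liver (black bar), with each kept gene in HSL-null liver as a grey point, the list's median in wild type as a red diamond, the number of genes kept in brackets and values under -3 drawn at -3. Cholesterol synthesis is lowest in HSL-null liver at -0.96 and lies at 0.57 in wild type, and immediate early genes are at 0.56 and -0.24.

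Clock and stress genes differed at single members. Per1, a clock repressor, had 25.8 on ND and 7.3 on FD (-1.82), against 49.9 and 27.0 in wild type (-0.89), but its FD signal was near the floor and the ratio was 0.00 with the floor at the median. Tef, an output factor of the clock, had 68.2 and 38.8 (-0.81), Bhlhe40 had 0.44 and Arntl, which drives the clock, 0.032. The median of the 16 clock genes was -0.12, and 0.006 when probe sets of a gene were averaged. Cytosolic heat shock genes had -0.017 over 20 genes and endoplasmic reticulum stress genes -0.038 over 25, with the co-chaperone gene Dnajb9 at 0.66 and the amino acid response gene Asns at 0.52. A further kept probe set of Dnajb9 gave -0.073.

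Among the remaining genes with the largest ratios, most were dim on the ND array. Nsf, which encodes a vesicle fusion ATPase, had 7.2 on ND and 45.2 on FD, 6.28-fold higher (2.65), against 39.9 and 47.7 in wild type (0.26). Its ND signal in HSL-null liver was the one that stood apart, and the ratio was 0.76 with the floor at the median. Chrne, a muscle acetylcholine receptor subunit, had 26.0 and 84.1 (1.69), T2 16.8 and 52.8 (1.65) and Sema5b, a semaphorin gene, 16.1 and 49.8 (1.63). Other Chrne probe sets, dim and under the filter, gave 0.635 and 0.0. Fgf4 (1.54), Samd10 (1.52) and Apbb1 (1.30) had ND signals between 10.8 and 16.3, and a floor at the median of all values left Fgf4 at 0.23, Samd10 at 0.50 and Apbb1 at 0.59. T2 (0.98) and Sema5b (0.90) were also under 2-fold with that floor. On the lower side, Bid, a gene of cell death, had 39.6 and 15.2 (-1.38), the cytoskeletal gene Add1 55.1 and 22.1 (-1.32) and the cyclin gene Ccne1 51.5 and 20.8 (-1.31), and the raised floor left Bid at -0.57 and Ccne1 at -0.95. Brighter among the higher genes was Tsc22d1, chosen after its values were seen, a transcriptional regulator with 256 and 623 (1.28), against 196 and 284 in wild type (0.54).

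Probe sets of a gene did not always give the same ratio. Of 13 genes past 2-fold with a second kept probe set, taken by signal, 12 had it in the same direction and 6 past 2-fold too. The exception was Plk1, a mitotic kinase gene, with 29.3 and 73.3 (1.32) where it was brightest and 29.6 and 25.9 (-0.19) at a probe set of similar signal. Ctse, the cathepsin E gene, had 249.6 on ND and 749.6 on FD where it was brightest (1.59), 122 and 456 at a further probe set (1.90) and 171 and 21.4 at the third (-3.0). The ratio of Ctse therefore has no settled direction. AI506816 had 256 and 679 (1.41), but 11.8 and 10.9 at another that did not pass the filter.

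Across the 4829 genes the diet ratios of HSL-null and wild-type liver were close to uncorrelated (Pearson's r -0.026, Spearman's rho -0.048). Few genes were past 2-fold, 1.45% in HSL-null liver and 3.15% in wild type. The error SD of a ratio from probe sets was 0.258 and 0.317, beside SDs over genes of 0.32 and 0.44. Over the 1208 dimmest genes the medians were 0.13 and -0.139. An r near 0 over all genes therefore says little about genes with large ratios. Genes are not independent replicates, and the pairs of arrays share none. The 4 genes 2-fold or more lower on FD in both genotypes were Elovl6, Fabp5, Lepr and Prss2. They are 13.3% of the 30 genes lower in HSL-null liver and 3.51% of the 114 lower in wild type. Prss2 was on the floor on both FD arrays and passed the filter only through its wild-type ND signal of 135.9. Its HSL-null signals were 15.2 and 1.9, and its HSL-null ratio was 0.00 with the floor at the median. No gene was 2-fold higher in both genotypes. The 10 genes higher in HSL-null and lower in wild-type liver were Cxcl1, Egr1, Igh-VS107, Igkv6-23, Il1b, Krtap3-1, Pip4k2a, Plk1, Ptpn22 and T2, or 25% of the 40 higher genes and 8.77% of the 114 lower in wild type. Mvd alone was lower in HSL-null and higher in wild-type liver. Over all 4829 genes, 0.828% were 2-fold higher and 0.621% lower in HSL-null liver, against 0.787% and 2.36% in wild type. The 40 genes higher in HSL-null liver had a wild-type median of -0.218, with 13 above 0 and 27 below, and the 30 lower genes a median of -0.054, with 14 above and 16 below. Whether a diet ratio differs between the genotypes cannot be tested with 1 array in each group.

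**Figure D5:**
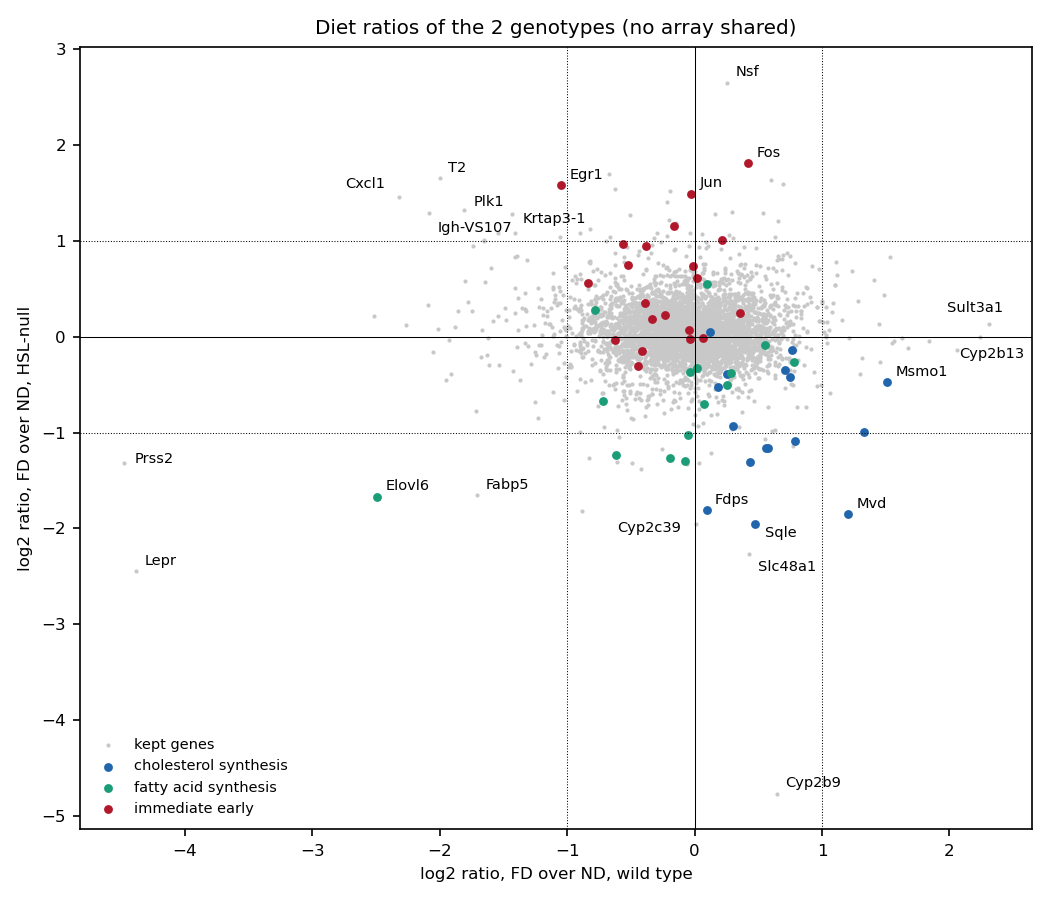
Log2 ratios of FD over ND for the 4829 genes, with wild type on the horizontal and HSL-null on the vertical axis, lines at 0 and dotted lines at 2-fold, and the genes of cholesterol synthesis (blue), fatty acid synthesis (green) and the immediate early list (red) marked. All 16 blue points lie right of 0 and 15 of them below it, and Lepr, Elovl6, Fabp5 and Prss2 are the genes in the lower left beyond both 2-fold lines.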

How the data were processed

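Total RNA of pooled livers was labelled with biotin and hybridised to MG_U74Av2 arrays, 1 array for each of the 4 groups. The deposited table gives a linear intensity for each probe set on each array. MAS5, which summarises the probes of a set, is named in the submitters' processing notes without a version. The 2% trimmed mean of all probe sets, controls included, ranged from 99.97 to 99.974 over the 4 arrays, which shows that the values had been scaled before they were deposited. The run settings of each array, which hold no expression value, were also deposited. They named the diet of the label on 4 of 4 arrays. Detection calls were not used here.

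Of 12488 probe sets 66 are controls. In the platform annotation 10833 of the others had 1 gene, 396 several and 1193 none, and only the first were named. A RefSeq gene table of GRCm38.p6 held 10817 of the 10833, and 0 symbols differed. A floor was set at 6.1 (the 25th percentile of the values), lower signals were raised to it, and log2 was taken. Probe sets with a mean over the 4 arrays of at least 26.9, the median of those means, were kept, which left 5615 probe sets and 4829 genes. A gene was read by its brightest probe set and counted from 2-fold. A gene on the floor on 1 array is given as at least N-fold lower, with the floor as the lower signal. No test was possible with a single array in each group, and their number limits the precision.

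The 46 gene lists were described by the number of members above 0, below 0 and past 2-fold and by their median, beside the same over all genes. The members and lists were chosen with earlier results of these data known. The rule for named genes took Lipe, the 15 highest and 15 lowest genes above the floor on both HSL-null arrays, genes on the floor on 1 of them (at most 10), genes past 2-fold in both genotypes, and in each list the gene on which it centres and at most 4 further members, those with ratios farthest from 0. Other genes named in the text were chosen after their values were seen. Alternatives were quantile normalization, median scaling, cyclic loess, a floor at the median, a pseudocount, other filters, other ways to combine probe sets, leaving out marker genes and a 1.5-fold threshold. The counting was tested on simulated data in which changes well past 2-fold were set in brighter genes only. That test does not cover changes in dim genes or changes near 2-fold. Python 3.11.15, numpy 2.4.6, pandas 2.3.3, statsmodels 0.14.6 and matplotlib 3.10.9 were used.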

Additional observations from a re-analysis of the deposited data

Results flagged for a closer look

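For 11 genes the FD array lay 2-fold or more from the ND array in both genotypes but in opposite directions. The difference between the genotypes was not tested, since each of the 4 groups is 1 array, and it is given as the HSL-null log2 ratio minus the wild-type one. Higher on FD in HSL-null and lower on FD in wild-type liver were Cxcl1 (difference 3.78), T2 (3.65), Igh-VS107 (3.37), Plk1 (3.13), Krtap3-1 (2.71), Ptpn22 (2.66), Egr1 (2.62), Igkv6-23 (2.62), Il1b (2.49) and Pip4k2a (2.09). Lower on FD in HSL-null and higher in wild-type liver was Mvd (-3.05). Of these genes Cxcl1 had a second kept probe set in the same direction in HSL-null liver (1.54), and Plk1 had one in the other direction (-0.19). Further probe sets of Pip4k2a, dim and under the filter, gave 0.099 and -0.654. Igh-VS107 and Igkv6-23 rest on probe sets with a suffix, which may read related chains. Most of these genes were dim. With the floor at the median the HSL-null ratios were 0.98 for T2, 0.77 for Igh-VS107, 0.55 for Pip4k2a and -0.67 for Mvd, while Krtap3-1 stayed at 1.03. With median scaling they were 0.85 for Ptpn22, 0.92 for Igkv6-23 and 0.93 for Il1b. Ptpn22 was past 2-fold in 4 of 9 alternatives and Il1b in 5 of 9. Over the 1208 dimmest genes the median was 0.13 in HSL-null liver and -0.139 in wild type. Of all genes, 1.45% in HSL-null liver and 3.15% in wild type were past 2-fold. The wild-type ND signal of Krtap3-1 was 73.2 and of Ptpn22 61.4, against 19.5 to 54.5 for both genes on the other arrays.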

How the results depend on the processing

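No paired analysis was possible because each group is 1 array with no replicate. The count of 40 higher genes became 22 with median scaling, 23 with the floor at the median, 24 with a pseudocount, 12 with a stricter filter, 187 with no filter and 200 at 1.5-fold. The count of 30 lower genes became 48 with median scaling, 18 with the stricter filter, 103 with no filter and 111 at 1.5-fold. All other counts were within 1.5 times. Fewer or more genes were tested under the filters, and for the rest the cause was not tested. Of 46 named genes past 2-fold, 14 stayed past it in all 10 alternatives run for genes, 11 more in all of those that kept them, and 14 fell under it with the floor at the median. Ctse was reversed without suffix probe sets (-3.0). Of 46 list medians 24 kept their sign in those alternatives and 22 did not. The former include cholesterol synthesis, fatty acid synthesis, immediate early and class II genes, and no median over 0.148 in size changed sign. With median scaling 11 medians turned, those for mitochondrial oxidation (-0.054), peroxisomal oxidation (-0.04), hydrolases (-0.044), bile acids (-0.008), male-biased genes (-0.051), red blood cells (-0.031), pancreas (-0.041), adipocytes (-0.063), NRF2 targets (-0.105), heme (-0.108) and P450 genes (-0.12). With quantile normalization and cyclic loess in turn, conjugation (0.008 and 0.023), retinoid (0.04 and 0.035), heat shock (0.008 and 0.025), urea cycle (0.035 and 0.022) and proteasome genes (0.008 and 0.011) turned, with cholesterol uptake (0.003) under the former alone and acute phase (0.021) under the latter. The mean of probe sets turned the clock (0.006) and the insulin list (0.043). The stricter filter turned male-biased (-0.137), pancreas (-0.088), heat shock (0.02), endoplasmic reticulum stress (0.02) and bile duct genes (0.012). Ratios of genes with a signal near the floor are the least certain.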

Other observations

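Several large gene groups had most members below 0 in HSL-null liver and none past 2-fold. Oxidative phosphorylation genes were below 0 at 41 of 48, with a median of -0.10 and 0.20 in wild type, from Ndufa2, a subunit of complex I (-0.43), to Cycs, the cytochrome c gene (0.68). Cytosolic ribosomal protein genes were below 0 at 20 of 23, with a median of -0.22, from Rpl13a (-0.36) to Rpl32 (0.52). Lysosomal genes were below 0 at 24 of 32 (-0.11), led by Npc2 (-0.54) and the protease gene Ctsl (-0.44). Coagulation, complement and serpin genes were below 0 at 21 of 29 (-0.13), and proteasome genes at 19 of 29 (-0.025, or 0.011 with cyclic loess). Of all genes kept, 42.8% lay below 0, and among the 1206 genes with the highest mean signals the median was -0.045.

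Cell cycle genes were mostly dim, with 23 of 43 measured genes kept. Of these 18 were above 0, beside 56.9% of all genes. The median was 0.18, or 0.007 with a stricter filter. Plk1 (1.32) was 2-fold higher (4.35% of the list, beside 0.828% of all genes). Ccne1 (-1.31) was 2-fold lower (4.35%, beside 0.621%). Mcm4, a subunit of the replicative helicase, had 0.87, or 0.59 with the floor at the median. Cks1b, a partner of cyclin-dependent kinases, had 0.77, and 0.79 in wild type. Genes of the urea cycle and amino acid metabolism had a median of -0.018 over 34 genes, between Hpd, an enzyme of tyrosine breakdown (-0.50), and Csad, which acts in taurine synthesis (0.71). Shmt2, a mitochondrial enzyme of serine metabolism, had 0.60. Of 2 ketogenesis genes measured, 1 was kept, the ketone body transporter gene Slc16a1 (0.34). In the heme list Abcg2, a porphyrin exporter gene, had 0.78 and Alas1, the rate-limiting enzyme of heme synthesis, 0.35. Muscle markers were under the filter at 16 of 18 genes, and the 2 kept had a median of 0.33.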
